A study of Mus musculus with 8 samples.

Results

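The mitosis genes are a set of 46 mouse genes whose products carry a dividing cell through mitosis, from the kinase that starts it to the proteins that pull the daughter cells apart. A gene counted as measured where the array annotation paired a probeset, a group of probes read together, with that gene's symbol and no other. On that basis 45 of the 46 were measured, among 19938 genes in all, and Ccnb1, the main mitotic cyclin, was the member without such a probeset. The members were listed by name from the known machinery, by no rule on their values, although earlier results of these data were known.

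The genes were read in CD4 T cells of C57BL/6 mice on 8 Affymetrix arrays of total RNA, with 2 arrays in each of 4 groups. The groups were Tet2-/- Th17 cells, wild-type Th17 cells, Tet2-/- Th1 cells and wild-type Th1 cells. Tet2 encodes an enzyme that oxidises 5-methylcytosine in DNA. Sorted naive CD4 T cells from spleen and lymph node (without CD25, high in CD62L and low in CD44) were activated through CD3 and CD28 in every group. Th17 cultures received IL-6 at 10 ng/ml and TGF-β1 at 0.5 ng/ml, with interferon-γ and IL-4 blocked by antibodies. Th1 cultures received IL-2 at 30 U/ml and IL-12 at 10 ng/ml, with IL-4 blocked. The sources used here do not give the time of harvest, the age and sex of the mice, or the part of Tet2 that was removed. The labels call the arrays of a group biological replicates and say no more, so the p-values measure the spread between these arrays.

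Mitosis genes are transcribed late in the cell cycle, and their mRNAs are much scarcer in resting than in dividing cells. In resting cells the DREAM complex holds many of them silent through a promoter element called the cell cycle genes homology region (CHR). In dividing cells the B-MYB-MuvB complex and the transcription factor FOXM1 activate them through the same element, usually together with the factor NF-Y, which binds CCAAT boxes. Naive T cells rest, and activation through CD3 and CD28 drives them into rapid division, so this programme is a familiar sign of proliferation in activated T cells. In RNA from a whole culture, fewer dividing cells and less mRNA per dividing cell cannot be told apart.

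The shared promoter design could be read in the RefSeq promoter table for GRCm38.p6, which covers 250 bases before to 50 bases after each annotated transcript start. It held 40 windows of 37 measured members. The CHR core TTTGAA, searched on both strands, lay in 80.0% of these windows and in 17.9% of all 32851 windows in the table. The CCAAT core, also searched on both strands, lay in 77.5% of the members' windows against 37.4% of all windows. Both cores together were present in 70.0% of the members' windows, against 6.95% of all. Of the 40 matches to the CHR core in the members, 30 (75.0%) lay within 50 bases of the start, compared with 25.3% of all matches in the table. The variant TTCGAA was found in 7.5% of the members' windows and in 1.56% of all. A match describes the letters of the window and is not a shown binding site.

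Stretches of 5 promoters, from 100 bases before to 30 bases after the start, are shown as examples, for genes named in the results below. Each reads 5′ to 3′ on the gene's own strand, with the CHR core or its variant and the CCAAT boxes in capitals on either strand, so that TTCAAA and ATTGG are the reverse strand's spelling. Ttk lies at chr9:83834589-83834718 on the plus strand, Ube2c at chr2:164769829-164769958 on the plus strand, Cenpf at chr1:189688057-189688186 on the minus strand, Bub1 at chr2:127831830-127831959 on the minus strand and Cdk1 at chr10:69352883-69353012 on the minus strand.
Ttk: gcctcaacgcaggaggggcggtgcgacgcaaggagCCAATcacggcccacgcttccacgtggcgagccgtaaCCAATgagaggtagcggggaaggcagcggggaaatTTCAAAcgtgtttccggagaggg
Ube2c: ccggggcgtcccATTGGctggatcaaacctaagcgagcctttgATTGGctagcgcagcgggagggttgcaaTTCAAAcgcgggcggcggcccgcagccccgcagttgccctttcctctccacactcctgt
Cenpf: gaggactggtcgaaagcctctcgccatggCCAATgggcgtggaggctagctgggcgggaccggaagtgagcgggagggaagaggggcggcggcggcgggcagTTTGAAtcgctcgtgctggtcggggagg
Bub1: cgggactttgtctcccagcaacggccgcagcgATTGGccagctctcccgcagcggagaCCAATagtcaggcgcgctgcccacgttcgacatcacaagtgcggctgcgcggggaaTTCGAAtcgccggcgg
Cdk1: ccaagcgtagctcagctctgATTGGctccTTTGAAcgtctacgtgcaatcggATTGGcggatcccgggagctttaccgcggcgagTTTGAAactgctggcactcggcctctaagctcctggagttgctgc
Ttk, Ube2c and Cdk1 each have 2 CCAAT boxes upstream of a CHR core near the start, and Cdk1 has a further CHR core between its boxes. In Cenpf 1 CCAAT box stands well upstream of a CHR core just after the start. Bub1 holds 2 CCAAT boxes and, in place of the CHR core, the variant TTCGAA.

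**Figure D1:**
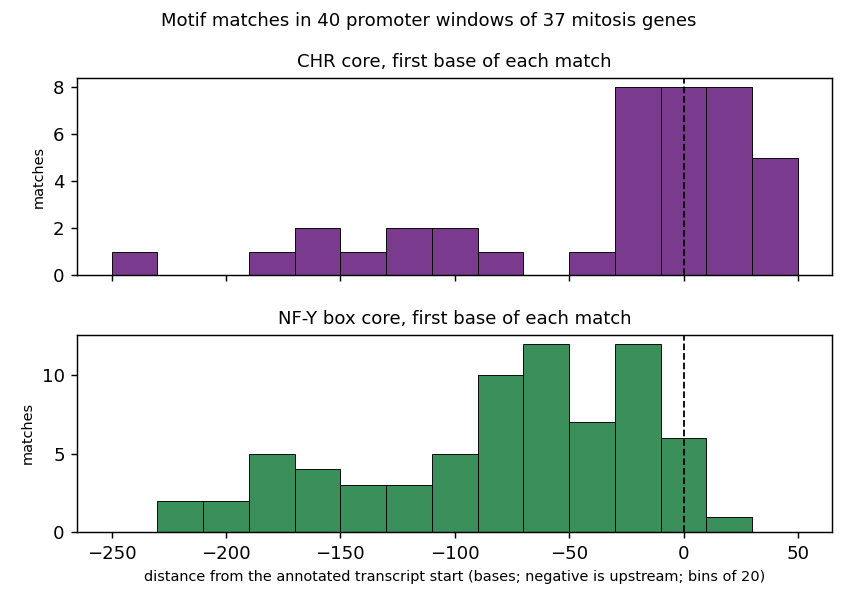
Distance from the annotated transcript start, in bases, of each match to the CHR core (top) and the CCAAT core of the NF-Y box (bottom) in 40 promoter windows of 37 mitosis genes; the vertical axis counts matches in bins of 20 bases and the dashed line marks the start. CHR matches gather around the start, with a median position of -1.5, and CCAAT matches lie further upstream, with a median of -63.5.

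The arrays carried the labelled cell types. Mean log2 levels over 6 T cell markers lay between 10.65 and 10.94 on all arrays. The Th17 marker list averaged 9.06 to 9.45 on Th17 arrays, against 6.09 to 6.34 on Th1 arrays, while the Th1 list averaged 7.79 to 7.95 on Th17 arrays, against 9.39 to 9.73 on Th1 arrays. All 7 myeloid markers, all 3 NK cell markers and 3 of 4 B cell markers stayed under the array's median probeset on all arrays. Of the 6 stromal markers 1 did so, and of the 2 CD8 T cell markers 0. The stromal list averaged 6.34 to 7.01 over the arrays and the CD8 list 6.23 to 6.56. The Tet2 probeset read 8.37 and 8.42 in Tet2-/- Th17 cells against 8.53 and 8.51 in wild-type Th17 cells, and 8.12 and 7.97 in Tet2-/- Th1 cells against 8.14 and 8.03 in wild-type Th1 cells. Neither difference passed the test (adjusted p = 0.9995 and 0.9841, limma), and without knowing which part of the gene was removed this probeset does not check the genotype labels, on which every genotype direction here rests.

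The Th17 arrays stood apart from each other in sex-linked genes. Xist, an RNA of female cells that silences 1 X chromosome, read 8.62 and 11.27 on the Tet2-/- Th17 arrays and 5.20 and 10.09 on the wild-type Th17 arrays, but 4.83 to 5.11 on the Th1 arrays. The mean of Eif2s3y, Kdm5d and Uty, which lie on the Y chromosome, read 8.71 and 4.85 on the Tet2-/- Th17 arrays and 8.80 and 7.82 on the wild-type Th17 arrays, against 7.95 to 8.24 on the Th1 arrays. Results that involve Th17 cells are therefore also given with the Y-linked mean as a covariate and without the arrays that read highest and lowest for it. The first of these is wild-type Th17 replicate 1 and the other Tet2-/- Th17 replicate 2. On the latter the Y-linked mean was 4.85, and on every other array it was at least 7.82. The covariate thus mostly marks that 1 array, and both checks overlap with leaving it out. Neither can tell the sex of the mice apart from other features of that array.

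No detection calls were used, so the levels of the 45 measured members are given beside the array medians. Their values ran from 5.95 to 10.12 on the log2 scale, beside array medians of 6.47 to 6.53 over all probesets. On all 8 arrays 37 members read above the array's median probeset, and the other 8 (Cenpe, Cenpf, Kif4, Cdc25c, Ttk, Spc25, Anln and Hmmr) read below it on 1 to 7 arrays.

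The mitosis genes moved together from array to array, so the members that share a direction below are not independent observations. The mean of the 45 was 7.57 and 8.05 in Tet2-/- Th17 cells, 7.68 and 7.63 in wild-type Th17 cells, 7.54 and 7.64 in Tet2-/- Th1 cells, and 7.80 and 8.02 in wild-type Th1 cells. The 2 highest arrays were Tet2-/- Th17 replicate 2 and wild-type Th1 replicate 2. The first was the highest of the 8 arrays for 27 members and the other for 17. The lowest reading of a member fell on Tet2-/- Th1 replicate 1 for 19 members and on Tet2-/- Th17 replicate 1 for 15.

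**Figure D2:**
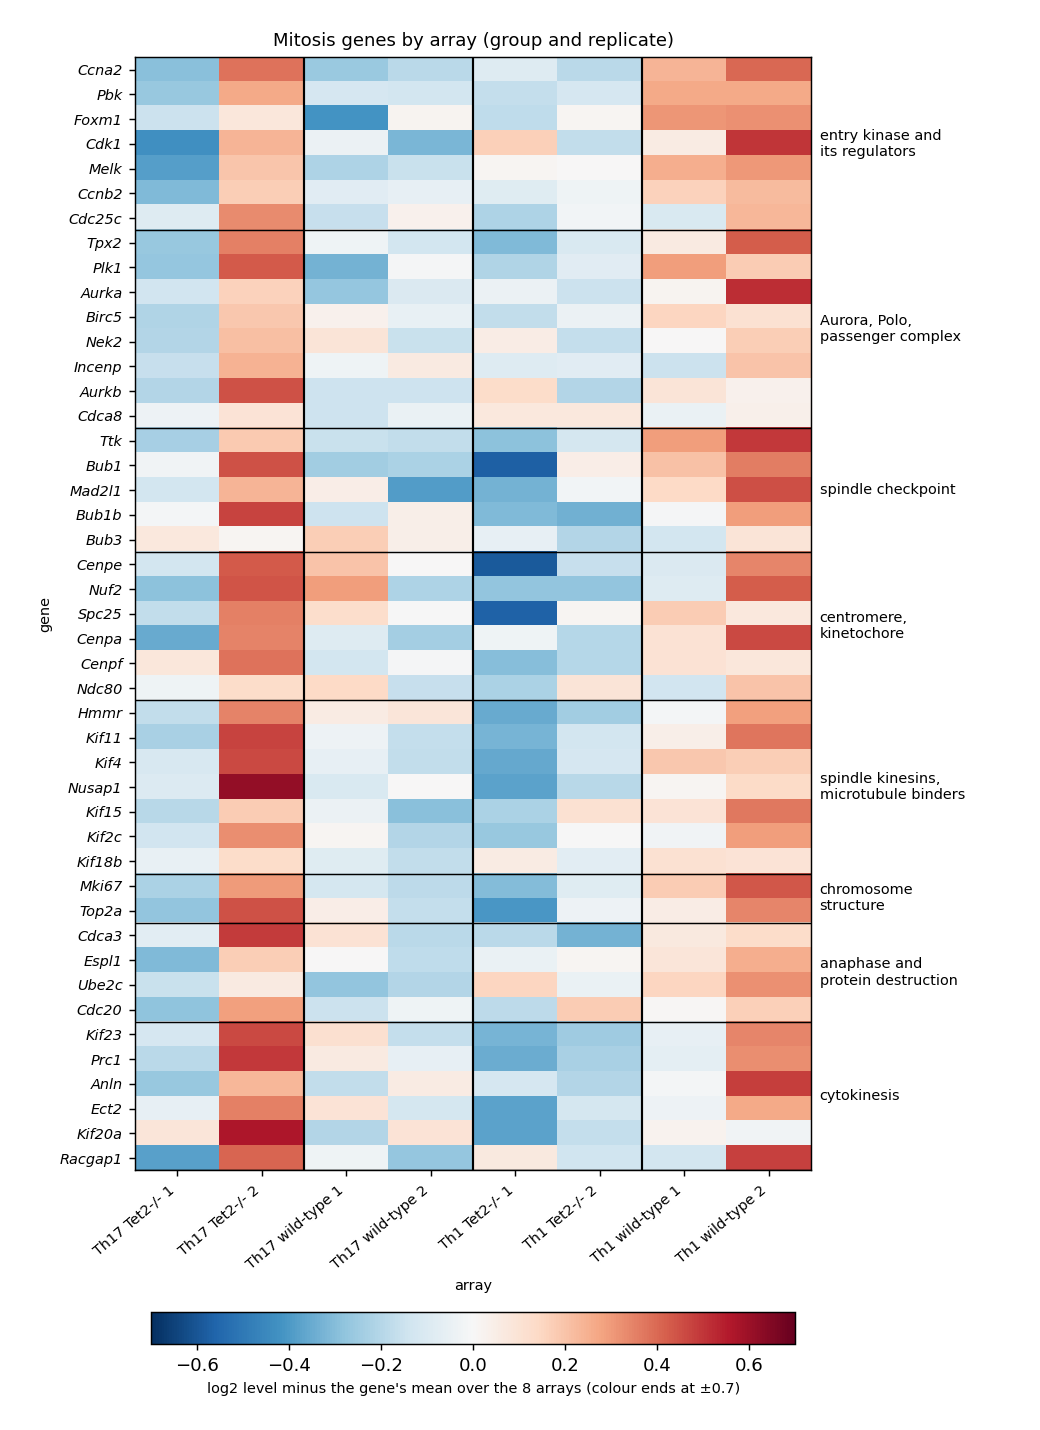
Each row is 1 of the 45 measured mitosis genes, ordered by role, and each column 1 array, with the colour giving the log2 level minus that gene's mean over the 8 arrays. Tet2-/- Th17 replicate 2 and wild-type Th1 replicate 2 are red over most rows, and Tet2-/- Th17 replicate 1 and Tet2-/- Th1 replicate 1 are mostly blue.

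The spread between the arrays of a group differed widely for these genes. Between the Tet2-/- Th17 arrays, replicate 2 read above replicate 1 for 44 of 45 members, with a median gap of 0.50 on the log2 scale. Over all genes 46.6% read higher on that replicate and the median gap was -0.01. In wild-type Th17 cells 18 members were higher on replicate 2, with a median gap of -0.07. In Tet2-/- Th1 cells 30 members were higher on replicate 2 (median gap 0.11), and in wild-type Th1 cells 37 (median gap 0.22). The SD of the list mean was accordingly 0.344 in Tet2-/- Th17 cells, 0.0374 in wild-type Th17 cells, 0.0672 in Tet2-/- Th1 cells and 0.151 in wild-type Th1 cells (n = 2 each).

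In Th1 cells, the mitosis genes were lower on the arrays labelled Tet2-/- than on the wild-type arrays in nearly every case, but no single gene passed the test. A lower level was seen for 44 of the 45, beside 47.8% of all genes. The median log2 difference was -0.36, where it was 0.007 over all genes. After Benjamini-Hochberg adjustment over all genes 0 of the 45 were called, and 1 gene in all was called (0.00502%), Ifng, the Th1 cytokine gene, which fell by 1.42 on the log2 scale. At an unadjusted p under 0.05, 18 members were lower and none was higher, while 2.97% of all genes were lower at that level. The spread in this fit was estimated from all 8 arrays, Th17 arrays included. The count was 25 when only the Th1 arrays were fitted and 6 when all 35556 probesets were fitted. The share of all genes at that level was not counted in those fits. For 33 members both Tet2-/- arrays lay under both wild-type arrays, as did 14.4% of all genes.

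The spindle checkpoint, which holds back chromosome separation until every kinetochore is attached, gave the widest genotype gap among the role groups of more than 2 genes, with 5 of 5 members lower and a median of -0.46. Ttk, the MPS1 kinase that starts the checkpoint signal, read 6.30 and 6.46 in Tet2-/- Th1 cells against 6.88 and 7.08 in wild-type Th1 cells. The groups did not overlap, and the difference of -0.60 ± 0.142 (SE), or 1.52-fold lower, had an adjusted p of 0.824. Its promoter, shown above, carries the full CHR and CCAAT layout. Bub1, a kinetochore kinase of the checkpoint, read 6.91 and 7.53 in Tet2-/- cells against 7.69 and 7.84 in wild-type cells, a difference of -0.55 ± 0.192 (SE). Bub1b, which encodes the checkpoint protein BubR1, read 7.24 and 7.21 against 7.54 and 7.84 in the same order, a difference of -0.46 ± 0.162 (SE). For both genes all Tet2-/- arrays lay under the wild-type arrays, although Bub1 varied by more between its Tet2-/- arrays than between the closest arrays of the 2 genotypes. Mad2l1, another checkpoint component, differed by -0.46 and Bub3, a binding partner of Bub1 and BubR1, by -0.11.

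Markers of proliferation and chromosome structure showed the same direction. Mki67, which coats mitotic chromosomes and is the Ki-67 antigen used to count cycling cells, read 9.20 and 9.42 in Tet2-/- Th1 cells against 9.68 and 9.94 in wild-type Th1 cells. The difference was -0.50 ± 0.169 (SE, adjusted p = 0.824). Top2a, the topoisomerase that untangles sister chromatids, read 9.27 and 9.64 in Tet2-/- cells against 9.73 and 10.02 in wild-type cells, a difference of -0.43. Neither gene's groups overlapped. A dimmer Top2a probeset, which read 3.67 to 4.68 over the arrays, differed by -0.19.

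At the centromere and kinetochore, the chromosome's attachment site for the spindle, 6 of 6 members were lower in Tet2-/- Th1 cells, with a median of -0.40. Cenpf, a large kinetochore protein, read 6.17 and 6.27 in Tet2-/- cells against 6.57 and 6.55 in wild-type cells, a difference of -0.34 ± 0.122 (SE). The arrays of each genotype lay close together and apart from the other's. Cenpe, a kinetochore motor, differed by -0.50, Cenpa, the centromeric histone, by -0.40, and the NDC80 complex genes Nuf2, Spc25 and Ndc80 by -0.44, -0.40 and -0.10.

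The entry kinase and its regulators were lower in 7 of 7 cases, with a median of -0.28. Foxm1, the transcription factor named above, read 7.0 and 7.19 in Tet2-/- Th1 cells against 7.49 and 7.50 in wild-type Th1 cells. Ccna2, the cyclin that partners CDK1 and CDK2 before mitosis, read 9.20 and 9.10 in Tet2-/- cells against 9.53 and 9.69 in wild-type cells. The arrays of the 2 genotypes did not overlap for either gene, with differences of -0.40 and -0.46. Cdk1, the mitotic kinase itself, read 9.35 and 9.01 in Tet2-/- cells against 9.24 and 9.68 in wild-type cells, and its groups overlapped. Pbk, a mitotic kinase, differed by -0.40, Melk, another kinase of proliferating cells, by -0.27, Ccnb2, a mitotic cyclin, by -0.25, and Cdc25c, a phosphatase that activates CDK1, by -0.18.

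The Aurora, Polo and passenger complex genes were the one role group with a member that was not lower, with 7 of 8 lower and a median of -0.19. Plk1, the Polo kinase of the spindle poles and kinetochores, read 7.55 and 7.68 in Tet2-/- cells against 8.05 and 7.94 in wild-type cells. Tpx2, an activator of Aurora A, differed by -0.45 and Aurka, which encodes Aurora A, by -0.36. The chromosomal passenger complex, which corrects faulty attachments, differed less. Aurkb, its kinase, read 8.71 and 8.38 in Tet2-/- cells against 8.67 and 8.61 in wild-type cells, and Birc5 (survivin) read 6.94 and 7.07 against 7.26 and 7.22 in the same order. Aurkb's groups overlapped and Birc5's did not. Cdca8 (borealin) was the one member that was higher, with 7.29 and 7.29 in Tet2-/- cells against 7.17 and 7.25 in wild-type cells. Its difference was 0.08 ± 0.111 (SE). The other members, Incenp, a scaffold of the complex, and Nek2, a centrosome kinase, differed by -0.11 and -0.14.

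Among spindle kinesins and microtubule binders, which build and move the spindle, 7 of 7 members were lower in Tet2-/- Th1 cells, with a median of -0.35. The differences ran from -0.44 for Hmmr, a spindle pole protein, through -0.43 for Kif11, the motor that separates the poles, and -0.42 for the chromokinesin Kif4, to -0.11 for Kif18b, which trims microtubule ends. Nusap1, Kif15 and Kif2c lay between them at -0.35, -0.28 and -0.27. In the cytokinesis group, whose products cleave the cell in 2, all 6 members were lower, with a median of -0.38. The centralspindlin motor Kif23 differed by -0.43, the midzone bundler Prc1 by -0.42, the scaffold Anln by -0.40, the RhoA activator Ect2 by -0.36, the motor Kif20a by -0.27 and Racgap1, the partner of Kif23, by -0.21. The anaphase group was lower in 4 of 4 cases with a median of -0.19. Cdc20, which switches on the anaphase-promoting complex, read 7.49 and 7.85 in Tet2-/- cells against 7.68 and 7.84 in wild-type cells, and its groups overlapped. Cdca3, an adapter in the destruction of Wee1, differed by -0.36, and the separase gene Espl1 and the ubiquitin-conjugating enzyme gene Ube2c each by -0.19.

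The direction in Th1 cells held when single arrays were left out, but its size depended on 2 of them. Without wild-type Th1 replicate 2, 41 of 45 members were lower, the median was -0.23 and 2 members were lower at an unadjusted p under 0.05. Without Tet2-/- Th1 replicate 1, 42 were lower, the median was -0.28 and 3 reached that level.

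In Th17 cells, most mitosis genes were higher on the arrays labelled Tet2-/-, but the gaps were small and rested on 1 array. Of the 45 members 43 were higher, beside 56.6% of all genes, with a median log2 difference of 0.16 (0.019 over all genes). None of the 45 was called, and no gene of the whole table was called (0.0%) by limma, with 561 genes (2.81%) higher at an unadjusted p under 0.05. At that level 3 members were higher, Cenpf, Kif20a and Bub1. The Tet2-/- arrays lay above both wild-type arrays for 5 members, or 11.1%, compared with 19.9% of all genes. Without Tet2-/- Th17 replicate 2, only 11 members were higher and the median was -0.07. Without Tet2-/- Th17 replicate 1, 44 were higher and the median was 0.39. With the Y-linked mean as a covariate 22 members were higher (median -0.007), and without the arrays highest and lowest in that mean 14 were higher (median -0.07). The 6 stromal markers were also higher in Tet2-/- Th17 cells, with array means of 6.95 and 7.01 against 6.66 and 6.70 in wild-type Th17 cells, chiefly through Lum, which read 8.13 and 8.00 against 6.98 and 7.10 in the same order, and their part in the result was not tested.

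The members with the smallest p in Th17 cells came from several roles. Cenpf read 6.55 and 6.85 in Tet2-/- Th17 cells against 6.34 and 6.46 in wild-type Th17 cells, a difference of 0.30 ± 0.122 (SE, adjusted p = 0.9995). Bub1 read 7.46 and 7.93 in Tet2-/- cells against 7.24 and 7.26 in wild-type cells, a difference of 0.45 ± 0.192 (SE). Neither gene's groups overlapped. Kif20a, a kinesin of the cleavage stage, read 7.81 and 8.29 in Tet2-/- cells against 7.52 and 7.82 in wild-type cells, so the lower Tet2-/- array fell inside the wild-type range. Kif4 read 6.25 and 6.82 against 6.30 and 6.19, and Bub1b 7.53 and 8.02 against 7.40 and 7.59, both with Tet2-/- first.

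For several of the best known members the Tet2-/- Th17 arrays spanned the wild-type ones. Mki67 read 9.28 and 9.80 in Tet2-/- Th17 cells against 9.38 and 9.32 in wild-type Th17 cells. Top2a read 9.40 and 10.12 in Tet2-/- cells against 9.72 and 9.51 in wild-type cells. Cdk1 read 8.75 and 9.42 in Tet2-/- cells against 9.14 and 8.86 in wild-type cells. For these 3 genes replicate 1 of Tet2-/- lay below both wild-type arrays and replicate 2 above both. The same held for Ccna2, with 9.0 and 9.67 in Tet2-/- cells against 9.03 and 9.10 in wild-type cells. It also held for Aurkb, with 8.38 and 9.03 in Tet2-/- cells against 8.44 and 8.44 in wild-type cells, and for Cdc20, with 7.39 and 7.96 in Tet2-/- cells against 7.52 and 7.64 in wild-type cells. Plk1 read 7.49 and 8.19 in Tet2-/- cells against 7.43 and 7.75 in wild-type cells, and Foxm1 7.03 and 7.26 in Tet2-/- cells against 6.76 and 7.20 in wild-type cells, so for both genes the lower Tet2-/- array lay inside the wild-type range. The members that were not higher were Birc5, with a difference of 0.00, and Bub3, with -0.06 ± 0.128 (SE).

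By role, the largest median in Th17 cells was again that of the spindle checkpoint, at 0.22 with 4 of 5 members higher. It was 0.19 for the kinesins and microtubule binders, 0.17 for the 2 chromosome structure genes and 0.16 for cytokinesis. The centromere and kinetochore genes had the smallest median, 0.05, although 6 of 6 were higher. Of the NDC80 complex genes, Ndc80 differed by 0.05, Nuf2 by 0.04 and Spc25 by 0.03.

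**Figure D3:**
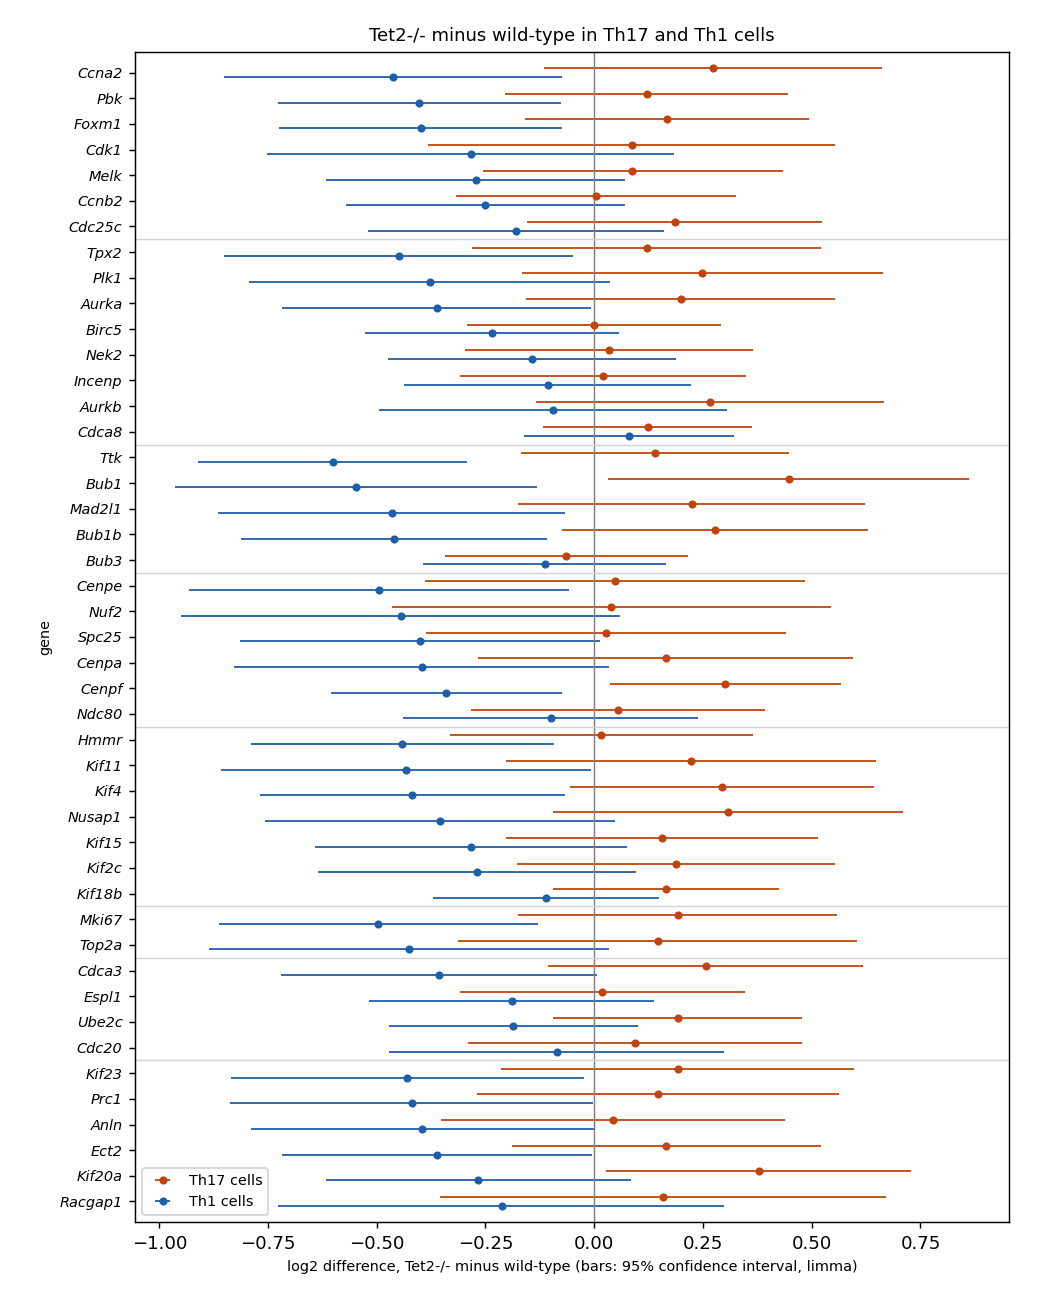
Log2 difference, Tet2-/- minus wild-type, of each mitosis gene in Th17 cells (orange) and Th1 cells (blue), with 95% confidence intervals from limma, ordered by role as in the heat map. The blue points lie left of 0 for 44 of 45 genes and the orange points right of 0 for 43, and many intervals cross 0.

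The genotype difference in Th17 cells was compared with that in Th1 cells gene by gene. It was higher in Th17 cells for 45 of 45 members, beside 52.7% of all genes. The median was 0.52 (0.012 over all genes) and the range 0.04 to 0.99. No member and no gene of the table passed the test of this difference (0.0% called), and 19 members were higher at an unadjusted p under 0.05, against 2.93% of all genes. Bub1 gave the widest difference, 0.99 ± 0.271 (SE, adjusted p = 0.9987). Ttk and Bub1b each gave 0.74, Kif4 0.71 and Cenpf 0.64 ± 0.173 (SE). The spindle checkpoint had a median of 0.74 and the anaphase group one of 0.29. Without Tet2-/- Th17 replicate 2 the difference was higher for 39 members, with a median of 0.23, and 5 members were higher at an unadjusted p under 0.05. Without Tet2-/- Th17 replicate 1 it was higher for 45, with a median of 0.73. Without wild-type Th1 replicate 2 it was higher for 42, and 8 reached that level. With the Y-linked mean as a covariate it was also higher for 42, with a median of 0.34 and 8 members at that level. Without the arrays highest and lowest in Y-linked genes it was higher for 42, with a median of 0.26 and 4 members at that level.

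In wild-type cells, the mitosis genes were lower in Th17 than in Th1 cells, and 2 of them passed the test. Th17 cells read lower for 44 of the 45, beside 52.8% of all genes, and the median log2 difference was -0.23 (-0.015 over all genes). The 2 called members, 4.44% of the 45, fell, where 3.17% of all genes were called lower. At an unadjusted p under 0.05, 12 members were lower (11.0% of all genes), and for 27 (60.0%) both Th17 arrays lay under both Th1 arrays (26.7% of all genes). Without wild-type Th1 replicate 2, 35 members were lower, the median was -0.14, and 4 were lower at an unadjusted p under 0.05. With the Y-linked mean as a covariate 42 were lower (median -0.22) and 2 were called, Ttk and Ccna2 (adjusted p = 0.0466 for Ccna2, limma). That fit called 498 of all 19938 genes lower. Without the arrays highest and lowest in that mean 42 were lower (median -0.29) and none was called.

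Ttk fell in wild-type Th17 cells, with 6.43 and 6.41 in Th17 cells against 6.88 and 7.08 in Th1 cells. The difference was -0.56 ± 0.142 (SE), or 1.48-fold, with an adjusted p of 0.0288. Ube2c, which works with the anaphase-promoting complex to mark cyclin B and securin for destruction, read 8.23 and 8.30 in Th17 cells against 8.66 and 8.83 in Th1 cells, and fell by 0.48 ± 0.132 (SE, adjusted p = 0.0422). Neither gene's groups overlapped, and both promoters carry a CHR core and 2 CCAAT boxes in the stretches shown above. Both calls were lost when either wild-type Th1 replicate 2 or wild-type Th17 replicate 1 was left out, with adjusted p for Ttk of 0.124 and 0.0936. Leaving out wild-type Th17 replicate 2 gave adjusted p of 0.147 for Ttk and 0.142 for Ube2c. The call of Ube2c was also lost without wild-type Th1 replicate 1 (adjusted p = 0.0618), without Tet2-/- Th17 replicate 1 or 2 (0.0554 and 0.055), with the Y-linked mean as a covariate (0.066) and when only the wild-type arrays were fitted (0.0701).

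Foxm1 stood just beyond the threshold, with 6.76 and 7.20 in Th17 cells against 7.49 and 7.50 in Th1 cells and an adjusted p of 0.0538. Ccna2 read 9.03 and 9.10 in Th17 cells against 9.53 and 9.69 in Th1 cells. Melk read 7.21 and 7.27 in Th17 cells against 7.68 and 7.73 in Th1 cells. These 3 genes did not overlap between the cell types and differed by -0.51, -0.55 and -0.47. The entry kinase and its regulators, to which they belong, and the spindle checkpoint each had a median of -0.46, and the centromere and kinetochore genes one of -0.10. Bub3 was the member that was higher, with 9.78 and 9.65 in Th17 cells against 9.48 and 9.70 in Th1 cells.

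In Tet2-/- cells, the mitosis genes tended to be higher in Th17 than in Th1 cells, and again 2 members passed the test. Of the 45 members 39 were higher, beside 48.8% of all genes, with a median of 0.19 (-0.007 over all genes). The 2 called members rose, where 7.14% of all genes were called higher. At an unadjusted p under 0.05, 12 were higher (14.9% of all genes), and for 12 both Th17 arrays lay above both Th1 arrays (28.8% of all genes). The called share of members, 4.44%, and the share without overlap, 26.7%, were thus below those of all genes. The share at an unadjusted p under 0.05 (limma), also 26.7%, was above that of all genes.

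Cenpf rose in Tet2-/- Th17 cells, with 6.55 and 6.85 in Th17 cells against 6.17 and 6.27 in Th1 cells. The difference was 0.48 ± 0.122 (SE), or 1.39-fold, with an adjusted p of 0.0264. Kif20a read 7.81 and 8.29 in Th17 cells against 7.35 and 7.56 in Th1 cells and rose by 0.59 ± 0.162 (SE, 1.51-fold, adjusted p = 0.0355). In both genes the lower Th17 array was still above the higher Th1 array. Bub1b read 7.53 and 8.02 in Th17 cells against 7.24 and 7.21 in Th1 cells, with an adjusted p of 0.0506. Nusap1, which bundles spindle microtubules, read 8.11 and 8.82 in Th17 cells against 7.83 and 8.01 in Th1 cells, and Cdca3 read 7.17 and 7.73 against 7.05 and 6.91 in the same order. Both differed without overlap, by 0.54 and 0.47, and neither passed the test.

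The 6 members that were lower in Tet2-/- Th17 cells than in Tet2-/- Th1 cells had small differences, from -0.11 to -0.01. They were Melk, Ube2c, Cdk1, Cdca8, Espl1 and Ccnb2. Cdk1 read 8.75 and 9.42 in Th17 cells against 9.35 and 9.01 in Th1 cells, so that the Th17 arrays enclosed the Th1 arrays. Ube2c read 8.35 and 8.57 in Th17 cells against 8.66 and 8.46 in Th1 cells. Cytokinesis genes had the highest median, 0.42, with 6 of 6 higher, followed by the centromere and kinetochore genes at 0.36.

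This comparison too rested on 1 array. Without Tet2-/- Th17 replicate 2, 19 of 45 members were higher, the median was -0.035 and none was called. Without Tet2-/- Th17 replicate 1, 45 were higher and the median was 0.46. With the Y-linked mean as a covariate 26 were higher and none was called. Without the arrays highest and lowest in that mean 19 were higher and none was called. The calls of Cenpf and Kif20a were also lost without Tet2-/- Th1 replicate 1 (adjusted p = 0.16 and 0.221) and without Tet2-/- Th1 replicate 2 (adjusted p = 0.0695 and 0.0664).

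**Figure D4:**
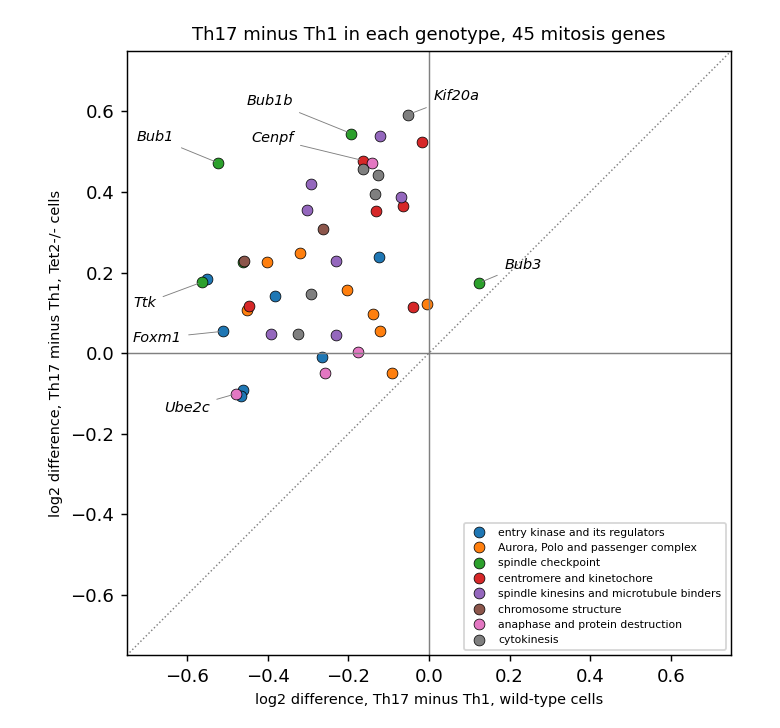
Log2 difference between Th17 and Th1 cells of the 45 mitosis genes in Tet2-/- cells (vertical axis) and in wild-type cells (horizontal axis), coloured by role; the dotted line marks equal differences. Most points lie above 0 on the vertical axis and left of 0 on the horizontal axis, with Kif20a the highest point and Bub3 the one right of 0 on the horizontal axis.

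The members were also split by the CHR core in their promoter windows, without a test. In Th1 cells the median genotype difference was -0.36 over the 29 members with the core and -0.40 over the 8 members whose windows lacked it. In Th17 cells it was 0.16 over those with the core and 0.07 over those without. Bub1, which has the variant in place of the core, was among the members with the widest gaps in both.

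Other genes of the cell division pathway were read from lists of related genes, to see how far the pattern reached. A second list of 41 measured mitosis genes followed the first. In Th1 cells 38 of the 41 were lower on the arrays labelled Tet2-/- (median -0.30), and in Th17 cells 34 were higher (median 0.14). None of these was called. Knl1, a kinetochore scaffold, read 7.36 and 7.50 in Tet2-/- Th1 cells against 7.84 and 8.13 in wild-type Th1 cells, the smallest p of that list. Between cell types, 1 of the 41 was called lower in wild-type Th17 cells, where 3.17% of all genes were. It was Cenpi, a centromere protein, which fell by 0.76 (adjusted p = 0.021). In the same comparison 8 of the 41 were higher, among them Ckap2 by 0.36 (adjusted p = 0.159). In Tet2-/- Th17 cells 2 of the 41 were called higher, where 7.14% of all genes were. The kinesin Kif22 rose by 0.61 (adjusted p = 0.01) and the cytokinesis protein Cep55 by 0.55 (adjusted p = 0.0468). There 6 of the 41 were lower, among them Troap by 0.32 (adjusted p = 0.0892).

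The DNA replication genes, which act earlier in the cell cycle, showed smaller differences. In Th1 cells 26 of 33 were lower in Tet2-/- cells, with a median of -0.12, and none was called, while 47.8% of all genes were lower. Rrm2, a subunit of ribonucleotide reductase, and Tyms, thymidylate synthase, differed by -0.49 and -0.48. In Th17 cells 19 of 33 (57.6%) were higher in Tet2-/- cells, with a median of 0.04, close to the 56.6% of all genes that were higher there. On Tet2-/- Th17 replicate 2 all 33 read above replicate 1, with a median gap of 0.20. Rfc4, a clamp loader subunit, was the one replication gene called in any comparison, and rose by 0.53 in Tet2-/- Th17 cells relative to Tet2-/- Th1 cells (adjusted p = 0.0346). In that comparison 7.14% of all genes were called higher.

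Genes of G1 and quiescence showed small genotype differences by the list's median. In Th1 cells 13 of 21 were lower in Tet2-/- cells, with a median of -0.02. In Th17 cells 16 of 21 were higher in Tet2-/- cells, with a median of 0.07, and 4 were higher at an unadjusted p under 0.05. Rbl2, which encodes the DREAM component p130, was the 1 gene lower at that level. It read 8.44 and 8.33 in Tet2-/- Th17 cells against 9.31 and 8.95 in wild-type Th17 cells. The difference of -0.75 ± 0.150 (SE, adjusted p = 0.4616, limma) was wider than that of any mitosis member in either genotype comparison. The Tet2-/- Th17 arrays differed by a median of 0.02. Between cell types, several of them changed in both genotypes. Cdkn1b, the p27 inhibitor of cyclin-dependent kinases, rose in Th17 cells by 1.43 in Tet2-/- and by 1.10 in wild-type cells. Rbl2 rose by 0.82 in Tet2-/- and by 1.44 in wild-type cells, and Rb1 by 1.07 and 0.74 in the same order. Ccne2, a G1/S cyclin, fell by 0.81 in wild-type Th17 cells. Among 13 DREAM and MuvB complex genes, 7 were lower in Tet2-/- Th1 cells and 7 in Tet2-/- Th17 cells, with none called. The complex's DNA-binding subunit Lin54, which contacts the CHR, fell by 0.60 in wild-type Th17 cells (adjusted p = 0.0141), and the NF-Y subunit Nfya rose by 0.48 (adjusted p = 0.0217).

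**Figure D5:**
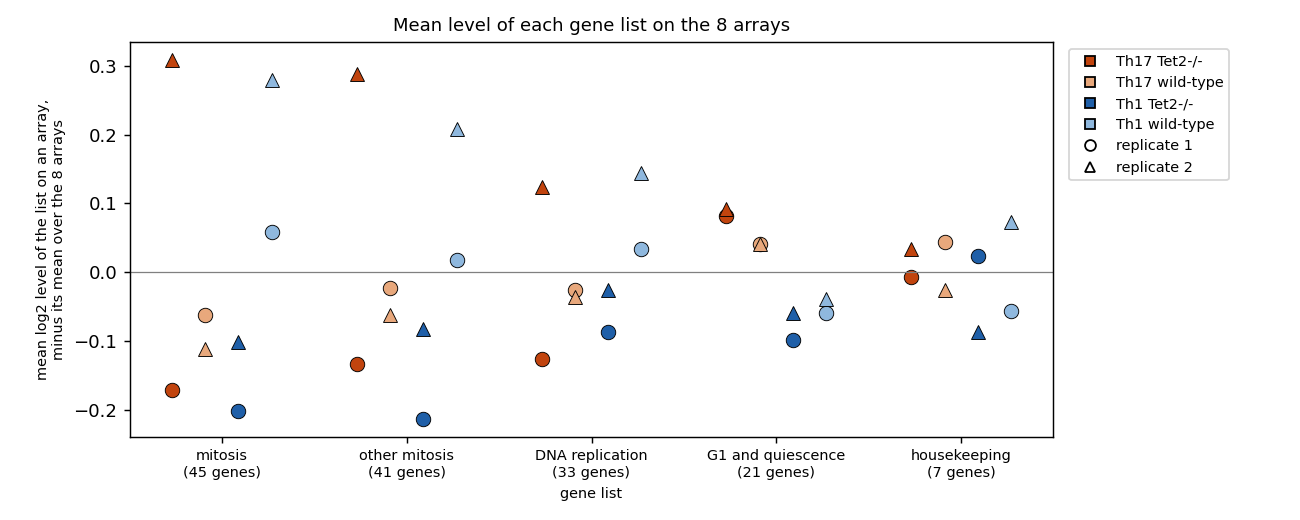
Mean log2 level of each gene list on each of the 8 arrays, minus that list's mean over the arrays, with colours for the groups and shapes for the replicates. The mitosis and other mitosis lists spread most, with Tet2-/- Th17 replicate 2 and wild-type Th1 replicate 2 highest. The replication list spreads less in a similar order. The G1 and housekeeping lists spread least, and the G1 list splits by cell type, with means of 8.77 to 8.83 on Th1 arrays and 8.91 to 8.96 on Th17 arrays.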

How the data were processed

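Total RNA of 8 samples was labelled with biotin and hybridised to Affymetrix arrays. The deposited log2 values were made by the authors. RMA and Partek are the tools named in the submitters' processing notes. The sources used here give no versions, filters or log base, so log2 was inferred from the range of the values. Of 35556 probesets, 21789 had 1 gene symbol. For the 999 genes with several, the probeset of highest mean was kept. That left 19938 genes and no filter on low values. With arrays, their number (2 per group) limits the precision.

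Group means over all 8 arrays were fitted by limma (version 3.58.1, under R version 4.3.3; eBayes with intensity trend, 4 residual and 8.44 prior degrees of freedom). Tests were two-sided, adjusted by Benjamini-Hochberg over all genes, with calls under 0.05. The code was tested on simulated data. Same-numbered replicates were not paired in the main fit, since the labels do not say that a number marks a shared mouse or day. The correlations of their deviations ran from -0.189 to 0.053, which does not settle whether samples were paired. Named genes were the best known members, those of smallest p in each direction and all called ones, with others by role. The members, lists and tests were chosen with earlier results of these data known. Alternatives covered the replicate block, variance trend, dim genes, arrays, probesets, normalization, centring, Y-linked genes (the 3 measured of 4 planned) and leaving out each array.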

Additional observations from a re-analysis of the deposited data

Results flagged for a closer look

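In 4 of the 45 mitosis genes (8.89%), both Tet2-/- arrays lay below both wild-type arrays in Th1 cells and above both in Th17 cells. The same held for 600 of all 19938 genes (3.01%). The genotype difference in Th17 cells minus that in Th1 cells was 0.99 for Bub1, 0.64 for Cenpf, 0.38 for Ube2c and 0.28 for Kif18b on the log2 scale. This difference was tested with limma, and each had an adjusted p of 0.9987. Groups of 2 arrays are too small for a test of single outlying arrays.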

How the results depend on the processing

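With 2 arrays a group, the number of arrays limits every result here, and the cause of the changes below was not tested unless stated. In Th1 cells, the list's median in the Tet2-/- comparison kept its direction under every alternative run. It ran from -0.413 without wild-type Th1 replicate 1 to -0.233 without wild-type Th1 replicate 2, beside -0.361 in the main fit. Every shift was under 0.192, the SD of the list mean pooled over all 4 groups. That SD takes in the wide Tet2-/- Th17 group (0.344), and the Th1 groups' own SDs were smaller, at 0.0672 and 0.151. In Th17 cells, the Y-linked mean as a covariate gave a median of -0.007 with 22 members higher, and turned 21 members, among the named ones Cdc20 (-0.12), Cdk1 (-0.13), Plk1 (-0.041) and Top2a (-0.087). Without the arrays of highest and lowest Y-linked level it was -0.073 with 14 higher and 31 turned, and among the named members that turned the differences were -0.061 for Aurkb, -0.065 for Bub1b, 0.032 for Bub3, -0.10 for Ccna2, -0.25 for Cdc20, -0.11 for Cdk1, -0.17 for Foxm1, -0.01 for Kif20a, -0.039 for Mki67, -0.26 for Plk1 and -0.10 for Top2a. The median difference between the cell types' genotype gaps was then 0.26, and the Th17 minus Th1 median in Tet2-/- cells was -0.035 with 19 higher. Members called between Th17 and Th1 cells numbered 0 in wild-type and 0 in Tet2-/- cells when all 35556 probesets were adjusted together. After a second quantile normalization 6 were called lower in wild-type and 1 higher in Tet2-/- cells. Of all 19938 genes, 633 were then called lower in wild-type and 918 higher in Tet2-/- cells. That normalization also turned Bub3 (-0.016) in wild-type cells. The Y-linked covariate left 0 members called in Tet2-/- cells, where 1009 of all genes were called higher.

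Leaving out single arrays, the Th17 genotype median ran from -0.072 to 0.39 with 11 to 44 members higher. The gap between the cell types' genotype differences ran from 0.23 to 0.73. Called members between the cell types ran from 0 to 3 in wild-type and from 0 to 8 in Tet2-/- cells, where the median ran from -0.035 to 0.455 with 19 to 45 higher. At most 3 members turned in Th1 cells and 32 in Th17 cells when an array was left out. Those among the named members were, in Th1 cells, Aurkb (-0.26 to 0.068) and Cdc20 (-0.27 to 0.094), and in Th17 cells Aurkb (-0.061 to 0.595), Birc5 (-0.20 to 0.20), Bub3 (-0.13 to 0.003), Ccna2 (-0.059 to 0.60), Cdc20 (-0.19 to 0.38), Cdk1 (-0.25 to 0.42), Foxm1 (-0.057 to 0.39), Mki67 (-0.069 to 0.45), Plk1 (-0.10 to 0.60) and Top2a (-0.21 to 0.505). In the Th17 minus Th1 comparison at most 9 turned in wild-type cells and 20 in Tet2-/- cells, where the named ones were Cdca8 (-0.11 to 0.015), Cdk1 (-0.43 to 0.25), Espl1 (-0.29 to 0.19), Melk (-0.40 to 0.185) and Ube2c (-0.22 to 0.013). The lone array left in a group was assumed to vary like the others.

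With the replicate number as a block, 0 members were called in both genotype comparisons, 2 between wild-type Th17 and Th1 cells (Foxm1 gained at an adjusted p of 0.0359, Ube2c lost at 0.0651) and 3 in Tet2-/- cells (Bub1b gained at 0.03). Of all 19938 genes, the block fit called 563 lower in wild-type Th17 cells and 1222 higher in Tet2-/- Th17 cells. The labels do not say that the numbers pair the samples, and the correlations of the deviations do not settle it. Wild-type Th1 and Th17 arrays correlated at -0.189, and in a fit of the wild-type arrays alone with crossed numbers as a block, an alternative chosen after seeing the data, 14 members and 3263 genes were called. The fit of those arrays without a block called 3 members and 1162 genes.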
